A study of Homo sapiens with 11 samples.

Results

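The complement genes described here are 9 genes of the complement system, C3, C5, C1R, C1S, CFB, CFI, CD46, CD55 and CD59, taken by gene symbol from a table of 23609 gene symbols. RNA sequencing had been run on A549, a long-established line derived from a human lung adenocarcinoma, exposed to cigarette smoke condensate (CSC, the tar-like matter collected from smoke) or to the vehicle DMSO. The groups were CSC for 2 weeks (3 libraries), DMSO for 2 weeks (3 libraries), CSC for 48 hours (3 libraries) and DMSO for 48 hours (2 libraries, replicates 2 and 3), with the condensate at 20 µM as the labels write the dose. All 11 libraries come from this 1 cell line, and the labels do not say whether the replicates were separate cultures, so the p-values measure the spread between these libraries, which may be technical.

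Complement is a cascade of plasma proteases and their substrates that marks microbes and damaged cells. C1r and C1s are the proteases of the C1 complex, which starts the classical pathway, and factor B (CFB) supplies the protease of the alternative pathway. Every route converges on C3, whose cleavage leads on to that of C5 and to the membrane attack complex. Host cells hold the cascade in check with factor I (CFI), a soluble protease that degrades active C3 fragments, and with 3 membrane proteins. CD46 is a cofactor for factor I, CD55 speeds the decay of the convertases, and CD59 blocks the membrane attack complex. The liver makes most plasma complement, and lung epithelial cells make some of it locally.

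The unit of the files is FPKM, a fragment number scaled by transcript length and by the size of the library, so levels may be compared between genes. The FPKM values summed to between 338507 and 484053 per library, and 11742 to 12051 genes reached an FPKM of at least 1. The read depth is unknown, but the width of the deposited confidence bounds put the relative depth of CSC 2 weeks replicate 2 at 2.70, against 1 to 1.37 in the other 10 libraries. The epithelial keratins KRT8 (574 to 1745 FPKM) and KRT18 (616 to 1765 FPKM) were abundant in every library. The summed FPKM of 5 epithelial markers was 2096 to 2769 in CSC and 3059 to 3554 in DMSO at 2 weeks. At 48 hours it was 1225 to 1594 in CSC and 1922 to 2250 in DMSO. The sum was thus lower in CSC at both times, as were the means of C3, C1S and CD46 below. KRT8 and KRT18 carry most of it, since KRT19 did not exceed 49.3 FPKM, CDH1 11.1 FPKM and EPCAM 8.15 FPKM. Of the 5 markers, 4 were lower in CSC and 1 higher at 2 weeks, and 3 lower and 2 higher at 48 hours. In the limma test used below 0 passed either way. The part of these markers in the differences of the complement genes was not tested. Among markers of other cells, the leukocyte gene PTPRC did not exceed 0.0282 FPKM, the liver gene ALB did not exceed 0.0603 FPKM, and COL1A2 and DCN of fibroblasts and KDR of endothelium were listed at 0 in all 11 libraries. Other members of those lists were present in every library: CD68 at 3.81 to 7.24 FPKM and CD14 at 0.676 to 3.76 FPKM of the blood cell list, COL1A1 at 3.73 to 11.5 FPKM of the fibroblast list and APOH at 0.636 to 11.2 FPKM of the liver list. These genes carry most of the sums that follow, and the part of the lists in the differences below was not tested. The 4 endothelial markers summed to at most 0.0491 FPKM in any library. The 5 blood cell markers summed to 8.66 to 11.7 FPKM in CSC and 8.004 to 8.27 FPKM in DMSO at 2 weeks, the 5 fibroblast markers to 7.05 to 9.28 FPKM in CSC and 10.8 to 11.8 FPKM in DMSO, and the 4 liver markers to 7.94 to 11.2 FPKM in CSC and 5.50 to 8.55 FPKM in DMSO. At 48 hours the blood cell markers summed to 5.89 to 6.74 FPKM in CSC and 6.58 to 7.05 FPKM in DMSO, the fibroblast markers to 3.84 to 4.76 FPKM in CSC and 4.04 to 6.35 FPKM in DMSO, and the liver markers to 0.636 to 3.15 FPKM in CSC and 2.14 to 4.40 FPKM in DMSO. In a bulk sample, fewer cells of a type and less RNA per cell cannot be told apart.

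Of the 9 genes, 7 reached an FPKM of at least 1 in every library, and CFB and CFI reached it in none. In DMSO at 2 weeks the order of the levels was CD46 (66.8 to 79.1 FPKM), then C1S (30.9 to 37.5) with CD59 (31.6 to 35.5), then C1R (20.5 to 24.9), C3 (16.8 to 19.2), C5 (14.4 to 16.4) and CD55 (9.65 to 13.0), and last CFI (0.763 to 0.925) with CFB (0.699 to 0.992). C1S and CD59 overlapped, as did CFI and CFB, and the other neighbours in this order did not overlap between libraries. In mean FPKM over the 11 libraries CD46 lay at the 93.3rd percentile of the 12506 genes tested and CD59 at the 83.9th. C1S lay at the 77.3rd, C1R at the 68.0th, C5 at the 67.4th, CD55 at the 61.5th and C3 at the 58.5th.

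After 2 weeks, 3 complement genes were lower in CSC than in DMSO: C3, the hub of the cascade, C1S, a protease of its classical start, and CD46, a membrane brake. The difference was largest for C3, at 8.34 ± 1.78 FPKM in CSC, against 18.0 ± 1.18 FPKM in DMSO (SD, n = 3 each). Falls and rises in CSC are relative to DMSO at the same time, except where 2 times are compared. The remaining 4 genes tested had lower mean values in CSC without passing the test. The fit was limma on log2(FPKM + 0.5) across 12506 genes, and a gene counted as changed at a Benjamini-Hochberg adjusted p under 0.05. The 3 falls and 0 rises among the 7 tested members stand against 2.40% of all genes that fell and 3.01% that rose. The median difference over the 7 was -0.53 on the log2 scale and that over all genes was 0.09. In 7 of 9 members every CSC library lay below every DMSO library, as 9.84% of all genes tested did. Among the members tested these were C3, C1R, C1S, CD46 and CD59. The others were CFB and CFI, which are not among the genes tested.

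**Figure D1:**
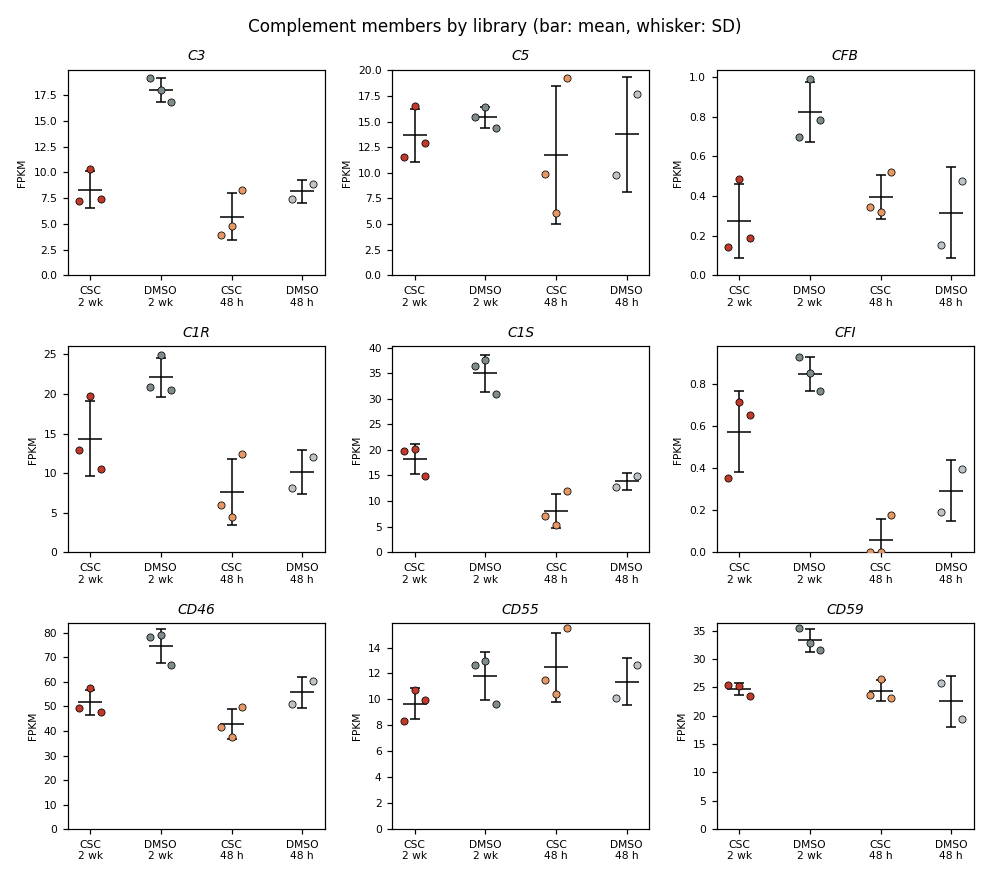
FPKM of the 9 complement genes (1 panel each, linear axis from 0) in each library, with CSC left of DMSO at 2 weeks and at 48 hours; points are libraries, the bar is the group mean and the whisker the SD. At 2 weeks C3 lies at 7.18 to 10.4 FPKM in CSC and 16.8 to 19.2 FPKM in DMSO, and CFB and CFI stay under 1 FPKM in all libraries.

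C3 lies on the minus strand at chr19:6677846-6720662 (hg19). Its FPKM at 2 weeks was 7.18, 10.4 and 7.46 in the CSC libraries, against 19.2, 18.0 and 16.8 in the DMSO libraries. The groups did not overlap, and the highest CSC value was that of replicate 2, the library with the highest estimate of relative depth. The log2 difference was -1.08 ± 0.21 (SE), with a limma adjusted p of 0.0123. The call was lost without CSC replicate 1 (adjusted p = 0.0584), CSC replicate 3 (adjusted p = 0.0683) or DMSO replicate 1 (adjusted p = 0.0549) of 2 weeks. At 48 hours C3 had 3.97, 4.83 and 8.27 FPKM in CSC, against 7.39 and 8.91 FPKM in DMSO, where CSC replicate 3 lay within the DMSO range. Its difference there was -0.54 ± 0.24 (SE) and did not pass the test (limma adjusted p = 0.571).

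C5, the substrate cleaved after C3 (minus strand, chr9:123714614-123812554), had 11.6, 16.5 and 12.9 FPKM in CSC and 15.4, 16.4 and 14.4 FPKM in DMSO at 2 weeks. The groups overlapped, and the log2 difference of -0.18 ± 0.32 (SE) did not pass (limma adjusted p = 0.754). At 48 hours its libraries ranged from 6.08 to 19.2 FPKM in CSC and had 9.78 and 17.7 FPKM in DMSO, so both groups were widely spread. The ratio of C3 to C5 FPKM at 2 weeks was 0.622, 0.628 and 0.580 in CSC, against 1.24, 1.10 and 1.17 in DMSO. C3 thus lay below C5 in every CSC library of 2 weeks and above it in every DMSO library of 2 weeks. At 48 hours the ratio was 0.400, 0.794 and 0.430 in CSC, against 0.756 and 0.503 in DMSO, so the groups overlapped and C3 lay below C5 in all 5 libraries.

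C1R and C1S, the genes of the C1 proteases, are neighbours on chromosome 12 on opposite strands, C1S on the plus strand at chr12:7167980-7178335 and C1R on the minus strand at chr12:7187515-7245043. C1S had 19.8, 20.2 and 14.8 FPKM in CSC at 2 weeks, against 36.5, 37.5 and 30.9 FPKM in DMSO. The groups were well apart. C1S fell by 0.93 on the log2 scale (SE 0.22, limma adjusted p = 0.0328). C1R had 12.9, 19.7 and 10.5 FPKM in CSC, against 20.9, 24.9 and 20.5 FPKM in DMSO. The 2 groups did not overlap, but CSC replicate 2 came within 1 FPKM of the lowest DMSO library, and the difference of -0.65 ± 0.30 (SE) did not pass (limma adjusted p = 0.212). The C1S call was lost without any 1 DMSO library of 2 weeks (adjusted p = 0.102, 0.111 and 0.0728 without replicates 1, 2 and 3) and without CSC replicate 1 (0.0743) or 3 (0.140) of 2 weeks. At 48 hours C1S had 6.99, 5.31 and 11.9 FPKM in CSC, against 12.7 and 15.0 FPKM in DMSO. These groups did not overlap either, and the difference of -0.81 ± 0.25 (SE) had an unadjusted p of 0.00661 and a limma adjusted p of 0.281. C1R then had 5.98, 4.44 and 12.4 FPKM in CSC and 8.18 and 12.1 FPKM in DMSO (-0.49 ± 0.34 SE, limma adjusted p = 0.793). In the annotation C1R overlaps C1RL, and reads from the 2 genes cannot be told apart where they overlap.

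The 2 weakly expressed soluble members were not tested, because neither reached an FPKM of 1 in any library. CFB, read from its locus at chr6:31913721-31919861 on the plus strand, had 0.143, 0.488 and 0.188 FPKM in CSC and 0.699, 0.992 and 0.783 FPKM in DMSO at 2 weeks, without overlap. Its 6 copies on alternative haplotype sequences were listed at 0. CFI, on the minus strand at chr4:110661848-110723335, had 0.352, 0.711 and 0.650 FPKM in CSC and 0.925, 0.852 and 0.763 FPKM in DMSO at 2 weeks, also without overlap. At 48 hours CFB had 0.343, 0.320 and 0.520 FPKM in CSC and 0.153 and 0.478 FPKM in DMSO. CFI was then listed at 0 in 2 CSC libraries and had 0.175 FPKM in the other, against 0.189 and 0.393 FPKM in DMSO. In a fit with no filter on low values the adjusted p at 2 weeks was 0.0800 for CFB and 0.320 for CFI. The reads behind both values are few, and their number is unknown.

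Among the membrane regulators, CD46 fell in CSC at 2 weeks, and CD59 and CD55 had lower means without passing the test. CD46 had 49.5, 57.7 and 47.8 FPKM in CSC, against 78.5, 79.1 and 66.8 FPKM in DMSO (plus strand, chr1:207925383-207968861). The groups did not overlap, and CD46 fell by 0.53 on the log2 scale (SE 0.13, limma adjusted p = 0.0369). This call was lost without CSC replicate 1 (0.118) or 3 (0.143), without DMSO replicate 1 (0.119), 2 (0.133) or 3 (0.0608) of 2 weeks, and without CSC replicate 1 of 48 hours (0.0531). At 48 hours CD46 had 41.6, 37.7 and 49.7 FPKM in CSC and 51.2 and 60.2 FPKM in DMSO, again without overlap (-0.37 ± 0.15 SE, limma adjusted p = 0.479). CD46 overlaps an antisense long noncoding gene, MIR29B2CHG, and since the strand setting of the counting is not given, their reads cannot be told apart. CD46, C3, CFB, CFI and CD59 each overlap a further annotated gene on their own strand, which for CD46 is the pseudogene CDCA4P4. Reads shared with these genes cannot be told apart at any strand setting.

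CD59 (minus strand, chr11:33724556-33758025) had 25.4, 25.3 and 23.5 FPKM in CSC at 2 weeks, against 35.5, 32.9 and 31.6 FPKM in DMSO. Its groups did not overlap and its libraries varied little, yet the difference of -0.42 ± 0.12 (SE) had a limma adjusted p of 0.0548. CD59 passed the test under every other scaling of the libraries that was tried (adjusted p between 0.0154 and 0.0215). In 12 of all 23 alternatives to the fit it did not pass. With 1 library left out its limma adjusted p reached 0.179. At 48 hours it had 23.6, 26.5 and 23.1 FPKM in CSC and 25.8 and 19.4 FPKM in DMSO, where the groups overlapped (0.12 ± 0.13 SE, limma adjusted p = 0.892). CD55 (plus strand, chr1:207494817-207534311) had 8.34, 10.7 and 9.92 FPKM in CSC and 12.7, 13.0 and 9.65 FPKM in DMSO at 2 weeks. The groups overlapped (-0.27 ± 0.16 SE, limma adjusted p = 0.328). At 48 hours CD55 had 11.5, 10.4 and 15.5 FPKM in CSC and 10.1 and 12.7 FPKM in DMSO, also overlapping (0.11 ± 0.18 SE, limma adjusted p = 0.942).

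The 250 bases before the most upstream annotated start are shown for CD46, the regulator that fell, and for CD59, whose difference lay just short of the threshold. Both windows are from RefSeq (promoter table of assembly GRCh38.p14). Each was placed on GRCh37 by an exact match of the sequence. The CD46 window lies at chr1:207925133-207925382 on the plus strand and that of CD59 at chr11:33758026-33758275 on the minus strand, and both read 5′ to 3′ on the gene's own strand. Capitals mark matches to GGGCGG (the GC box, seen here as its reverse complement) in CD46 and to TTCNNNGAA (a STAT-type palindrome) in CD59.
CD46: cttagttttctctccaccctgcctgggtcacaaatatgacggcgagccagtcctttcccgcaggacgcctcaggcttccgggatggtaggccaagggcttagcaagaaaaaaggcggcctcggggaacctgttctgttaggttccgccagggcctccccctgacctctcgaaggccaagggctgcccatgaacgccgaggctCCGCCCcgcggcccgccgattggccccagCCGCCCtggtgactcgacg
CD59: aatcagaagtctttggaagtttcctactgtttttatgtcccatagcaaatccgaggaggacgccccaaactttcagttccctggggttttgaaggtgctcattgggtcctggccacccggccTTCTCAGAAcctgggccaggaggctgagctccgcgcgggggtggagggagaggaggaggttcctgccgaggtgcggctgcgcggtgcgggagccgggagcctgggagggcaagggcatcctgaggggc
The 2 windows are rich in G and C, at 64.8% in CD46 and 62.0% in CD59. Of 27305 windows of this length, 42.2% held GGGCGG and 6.8% held TTCNNNGAA on either strand. The other 3 motifs were searched on both strands: GCGTG, the core bound by the smoke-responsive aryl hydrocarbon receptor (31.9% of all windows), TTNNGNAA, a C/EBP-type motif (33.7%), and TGANTCA, the AP-1 motif (6.6%). Neither window held one. The deposited data give 3 start identifiers for CD59, and windows before other starts of a gene were not searched. Of the 9 members, 7 had an entry in the promoter table, and C3 and C1S did not. In the others, C5 held 2 matches to GCGTG, C1R and CFI held 2 each to TTNNGNAA, CFB held 1 to TTCNNNGAA and CD55 held 1 to GGGCGG. A match is a string of letters and not a measured binding site.

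At 48 hours 0 of the 7 members tested passed in either direction, against 0.184% of all genes that fell and 0.104% that rose. An unadjusted p under 0.05 (limma) was found for 3 of the 7, and for 1062 of all 12506 genes tested. The median difference over the 7 was -0.37 on the log2 scale and that over all genes was 0.00. CSC libraries lay wholly below DMSO libraries for C1S, CD46 and CFI, 3 of 9 members, as for 11.8% of all genes tested, which do not include CFI. CSC replicate 3 of 48 hours stood apart, with the highest value of the 3 CSC libraries in every member except CD59. Without it C1S fell at 48 hours (-1.11, limma adjusted p = 0.0123). Without it and CSC 2 weeks replicate 2 together, a choice made after seeing the data, C3 (-0.82, adjusted p = 0.0123) and C1S (-1.11, adjusted p = 0.0114) both fell at 48 hours, and 5 members fell at 2 weeks, with C1R (-0.89, adjusted p = 0.00791) and CD59 (-0.44, adjusted p = 0.0290) added.

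**Figure D2:**
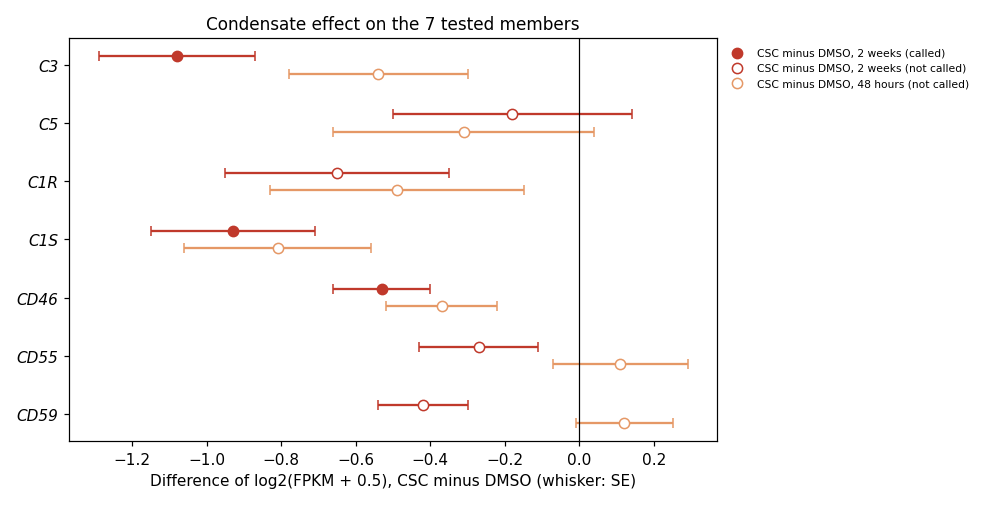
Difference of log2(FPKM + 0.5) between CSC and DMSO for the 7 tested members at 2 weeks and 48 hours, with the SE as whiskers; filled points passed the limma test at an adjusted p under 0.05 and open points did not. C3, C1S and CD46 at 2 weeks are the 3 filled points, at -1.08, -0.93 and -0.53.

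Whether the 2-week effect differed from the 48-hour effect was tested in the same fit, and 0 of the 7 members passed, against 0.0320% of all genes below and 0.00800% above. An unadjusted p under 0.05 (limma) was found for 1 of the 7, CD59, and for 876 of all 12506 genes tested. The CSC effect on CD59 was lower at 2 weeks than at 48 hours by 0.54 ± 0.17 (SE). It came nearest, with an unadjusted p of 0.00852 and a limma adjusted p of 0.630. For C3 the difference of the effects was -0.54 ± 0.32 (SE), with a limma adjusted p of 0.734. No member is therefore shown to respond differently at the later time.

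The effect of culture time was compared within each treatment. In DMSO, C1S rose at 2 weeks relative to 48 hours, to 34.9 ± 3.57 FPKM (SD, n = 3), against 13.8 ± 1.65 FPKM (SD, n = 2) at 48 hours (1.31 ± 0.25 SE, limma adjusted p = 0.0335). The call was lost without any 1 of the 5 DMSO libraries or CSC 2 weeks replicate 3 (adjusted p 0.0505 to 0.205) and under the 3 other scalings (0.0641 to 0.0833). C3 (1.10 ± 0.24 SE, adjusted p = 0.0575), C1R (1.11 ± 0.34 SE, 0.167), CD59 (0.56 ± 0.13 SE, 0.0745) and CD46 (0.42 ± 0.15 SE, 0.229) did not pass. C5 (0.22) and CD55 (0.04) differed by less than their SE of 0.35 and 0.18. In 7 of 9 members, C3, C1R, C1S, CFB, CFI, CD46 and CD59, all 2-week DMSO libraries lay above both of 48 hours, as for 28.8% of all genes tested. CFB and CFI are not among the genes tested. The 1 rise of 7 tested compares with 0.656% of all genes that rose and 0.112% that fell, and the median over the 7 was 0.56 on the log2 scale against 0.09 over all genes. In CSC, C1S also rose at 2 weeks, to 18.2 ± 2.98 FPKM, against 8.05 ± 3.41 FPKM at 48 hours (SD, n = 3 each; 1.19 ± 0.22 SE, limma adjusted p = 0.0153), a call lost without CSC 2 weeks replicate 1 (0.0527). No other tested member passed in CSC, where 12.3% of all genes rose and 1.38% fell. In 2 of 9 members, C1S and CFI, all CSC libraries of 2 weeks lay above all those of 48 hours. The same held for 28.4% of all genes tested, which do not include CFI. C1R differed by 0.95 ± 0.30 (SE, adjusted p = 0.0557), C3 by 0.56 ± 0.21 (0.0890), C5 by 0.34 ± 0.32 (0.458) and CD46 by 0.27 ± 0.13 (0.169). CD59 differed by 0.02 ± 0.12 (0.922) and CD55 by -0.34 ± 0.16 (0.161). Under the other scalings the sign of CD59 turned, as did that of CD46 under 2 of the 3. Without CSC 48 hours replicate 3, the rises of C3 and C1R with time passed as well, both in CSC (limma adjusted p = 0.0119 and 0.00900) and in DMSO (0.00603 and 0.0378). The DMSO differences do not use that library and stayed at 1.10 and 1.11. The spread in the test is estimated over all groups. The 2-week and 48-hour comparisons share libraries with the CSC comparisons, so they are not independent of them.

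Components and membrane regulators were then set side by side as summed FPKM. At 2 weeks the 6 soluble members (C3, C5, C1R, C1S, CFB and CFI) summed to 51.8, 68.0 and 46.5 FPKM in CSC, against 93.6, 98.7 and 84.1 FPKM in DMSO. The 3 membrane regulators summed to 83.2, 93.7 and 81.2 FPKM in CSC, against 127, 125 and 108 FPKM in DMSO. Both sums were lower in every CSC library. The ratio of soluble to membrane FPKM was 0.623, 0.726 and 0.573 in CSC, against 0.740, 0.790 and 0.778 in DMSO at 2 weeks. At 48 hours it was 0.354, 0.281 and 0.593 in CSC, against 0.440 and 0.591 in DMSO, where CSC replicate 3 lay just above both DMSO libraries. The soluble sum was then 27.2, 21.0 and 52.4 FPKM in CSC, against 38.3 and 54.55 FPKM in DMSO. The regulator sum was 76.7, 74.6 and 88.3 FPKM in CSC, against 87.1 and 92.3 FPKM in DMSO. Both sums of 48 hours overlapped between the groups. CD46 made up 58.9% to 61.5% of the regulator sum in CSC and 61.8% to 63.3% in DMSO at 2 weeks. These sums are descriptions and were not tested.

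**Figure D3:**
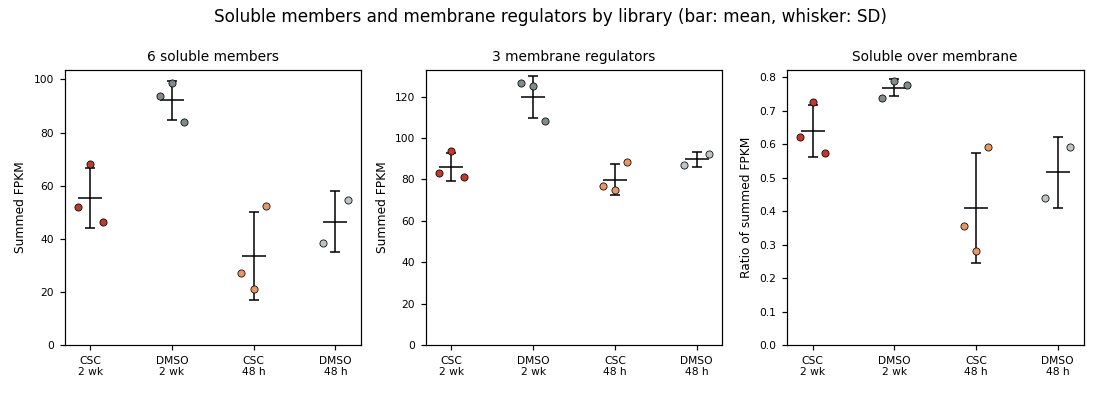
Summed FPKM of the 6 soluble members (left) and of the 3 membrane regulators (middle), and their ratio (right), in each library; points are libraries, the bar is the group mean and the whisker the SD. At 2 weeks both sums and the ratio are lower in all 3 CSC libraries than in all 3 DMSO libraries.

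Of 56 other complement genes, 55 were in the files, 9 passed the filter on low values and 13 were listed at 0 in all libraries. In CSC at 2 weeks 1 of the 9 fell and 0 rose, where 2.40% of all genes fell and 3.01% rose. The median over the 9 was -0.21, against 0.09 over all genes. The gene that fell was VTN, vitronectin, which binds the terminal complex and blocks its insertion in membranes. VTN had 1.63, 2.48 and 1.04 FPKM in CSC, against 7.75, 8.52 and 6.32 FPKM in DMSO. The groups were far apart, and VTN fell by 1.90 on the log2 scale (SE 0.23, limma adjusted p = 5.77e-04), a call kept in all 11 fits that left out 1 library. At 48 hours VTN differed by -1.03 ± 0.25 (SE) without passing (adjusted p = 0.135). In DMSO, VTN rose at 2 weeks relative to 48 hours (1.31 ± 0.25 SE, adjusted p = 0.0344), but the call was lost without any 1 of the 5 DMSO libraries (0.0789 to 0.201) and under the 3 other scalings (0.0757 to 0.0852).

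The other genes named from that list, with a mean FPKM of at least 1, did not pass in CSC at 2 weeks. THBD, thrombomodulin, a cofactor in the inactivation of active C3, had 15.2, 16.4 and 14.4 FPKM in CSC, against 24.2, 21.3 and 21.6 FPKM in DMSO, a gap without overlap that gave -0.53 ± 0.17 (SE, limma adjusted p = 0.0809). C1QBP, a mitochondrial protein that also binds C1q, differed by 0.40 ± 0.16 (0.159) and was the most abundant of the list. C1RL, a C1r-like protease, differed by -0.21 (0.616). CLU, clusterin, another inhibitor of the terminal complex, differed by 0.08 (0.800), and CFD, the protease that activates factor B, by -0.18 (0.358). CFD and CLU moved with culture time. CFD rose at 2 weeks in CSC, with 11.5, 10.1 and 10.95 FPKM, against 4.49, 3.58 and 4.70 FPKM at 48 hours (1.26 ± 0.12 SE, limma adjusted p = 2.63e-04), and in DMSO (0.89 ± 0.13 SE, adjusted p = 0.00874), where the call was lost without DMSO replicate 2 (0.0992) or 3 (0.0578) of 48 hours or DMSO replicate 1 of 2 weeks (0.0540). CLU rose at 2 weeks in CSC (0.75 ± 0.17 SE, adjusted p = 0.0224), though not under any of the 3 other scalings (adjusted p 0.0876 to 0.275), nor without CSC replicate 2 of 48 hours (0.0657) or CSC replicate 1 of 2 weeks (0.0664). The counts of the list were 0 falls and 2 rises of 9 in each of those comparisons over time. Of all genes, 12.3% rose over time in CSC and 0.656% in DMSO. In CSC against DMSO at 48 hours 0 of the 9 passed either way, where 0.184% of all genes fell and 0.104% rose. The median there was -0.27, against 0.00 over all genes. An unadjusted p under 0.05 (limma) was found for 2 of the 9, and for 1062 of all 12506 genes tested.

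**Figure D4:**
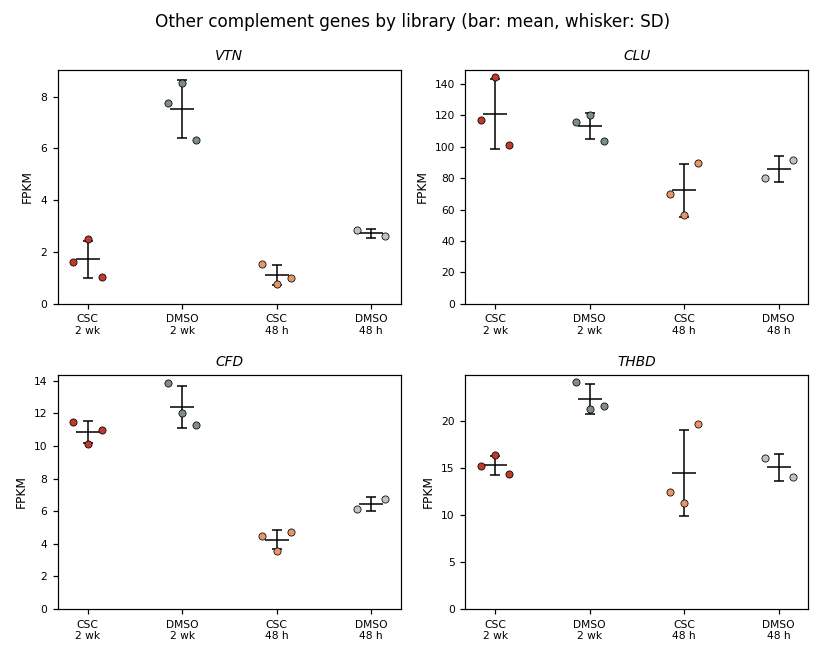
FPKM of VTN, CLU, CFD and THBD in each library (linear axes from 0); points are libraries, the bar is the group mean and the whisker the SD. VTN lies at 1.04 to 2.48 FPKM in CSC and 6.32 to 8.52 FPKM in DMSO at 2 weeks, while the CFD groups of 2 weeks overlap each other and lie above those of 48 hours.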

How the data were processed

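RNA sequencing of A549 cells was described per the labels' protocols as ribosomal RNA depletion, Illumina HiSeq sequencing and alignment to hg19 by TopHat2 version 2.0.9. CASAVA version 1.7.1a5 is listed in the submitters' processing notes. The sources used here do not give the quantifier, annotation, strand setting or library scaling. The authors deposited FPKM per gene and locus in 25275 lines per library. Values were summed per symbol (23609 symbols, 548 with several loci), and 1 gene with a failed estimate was left out. FPKM are not counts, so depth is unknown and no count model was used.

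The test was limma (version 3.58.1, R version 4.3.3; eBayes with a trend) on log2(FPKM + 0.5), for 12506 genes that reached 1 FPKM in 2 or more libraries. All 11 libraries entered 1 fit of 4 groups without a block, and p-values were Benjamini-Hochberg adjusted over all genes tested. Fold changes on this scale understate those of weakly expressed genes. Alternatives were other pseudocounts, filters and scalings, a replicate block, only the libraries compared, and each library left out. The members were all 9 genes, whatever their values. From the list of other complement genes, those called in a CSC comparison or with a mean FPKM of at least 1 were named, and from the cytokine list those called. One gene of the first list is not reported here. Members and lists were chosen with earlier results of these data known. Python version 3.11.15 with pandas version 2.3.3 and matplotlib version 3.10.9 prepared tables and figures.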

Additional observations from a re-analysis of the deposited data

How the results depend on the processing

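In CSC at 2 weeks the differences of C3 (-1.24 to -0.99), C1S (-1.07 to -0.79) and CD46 (-0.67 to -0.48) kept their direction under all 23 alternatives. Most of these could not have turned it. The groups of these 3 genes did not overlap, so leaving out libraries cannot change the sign. Filters and the 48-hour libraries do not enter these differences. The number of members called was 3. It became 0 with no filter on low values (limma adjusted p = 0.0510 for C3, 0.0935 for C1S, 0.0668 for CD46). The number was 5 without both CSC 48 hours replicate 3 and CSC 2 weeks replicate 2, and 0 to 4 with 1 library left out. At 48 hours it was 0, then 2 without both those libraries and 0 to 1 with 1 left out. For 2 weeks against 48 hours in DMSO it was 1, and became 2 with a pseudocount of 1 or a filter at an FPKM of 5, 0 with no filter or under median-of-ratios, common-sum or quantile scaling, 3 with only the libraries compared, 4 without both libraries and 0 to 3 with 1 left out. In CSC it was 1, then 2 with no filter or a filter at 5, 0 with only the libraries compared, 3 without both and 0 to 3 with 1 left out. The filter at 5 added C1R (limma adjusted p = 0.0419). With no filter the added member was 1 of those untested in the main fit, CFI (difference 0.94) or CFB (-0.23). The causes of these shifts were not tested. Fits that leave 1 DMSO library of 48 hours assume that it varies like the other groups.

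Whether replicate numbers pair the libraries was not settled. Deviations from the group mean were correlated above 0.1 in 3 of 5 same-number pairs. The correlations were 0.207 and 0.222 at 48 hours, and 0.222, -0.151 and -0.121 at 2 weeks. Among libraries of 2 weeks, 2 of 6 matched their own number best. The 2 DMSO libraries of 48 hours deviate from their mean by equal and opposite amounts, so the pairs of 48 hours are not independent. With a replicate block the count for 2 weeks against 48 hours in DMSO was 0 (C1S adjusted p = 0.0705), and at 2 weeks CD59 joined the calls (adjusted p = 0.0325).

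Scaling moved the median of all genes by over 0.1. It was 0.19 for 2 weeks against 48 hours in CSC, and 0.02, -0.09 and 0.01 under median-of-ratios, common-sum and quantile scaling, and all genes called there numbered 172 lower and 1536 higher, against 243 and 184, 458 and 84, and 201 and 123. In CSC against DMSO at 2 weeks 300 were lower and 376 higher, against 459 and 288, 486 and 264, and 441 and 325. In DMSO over time 14 were lower and 82 higher, against 16 and 43, 14 and 32, and 19 and 41. Signs turned, in differences that had not passed, as follows. Under those 3 scalings, CD55 over time in DMSO was -0.05, -0.07 and -0.07 and CD59 over time in CSC was -0.15, -0.28 and -0.24. CD46 over time in CSC was -0.04 (common sum) and -0.03 (quantile), and the difference of CSC effects for C5 was -0.05 (common sum). Without both libraries CD55 at 48 hours was -0.05, CD59 over time in CSC -0.04 and the difference of effects for C1S 0.11. With 1 library left out, ranges that cross 0 were, at 48 hours, CD55 -0.05 to 0.27, C5 -0.72 to 0.11 and CD59 -0.08 to 0.32; over time in DMSO, C5 -0.20 to 0.63 and CD55 -0.11 to 0.20; over time in CSC, CD59 -0.02 to 0.08 and C5 -0.03 to 0.76; and for the difference of effects, C1R -0.45 to 0.24, C1S -0.36 to 0.19 and C5 -0.29 to 0.54.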

Other observations

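Of 25 genes of the cytokine signals that can induce complement, such as interleukin-6 and interferon signalling, 21 passed the filter on low values. In CSC at 2 weeks 2 rose and 0 fell, against 3.01% of all genes that rose and 2.40% that fell. The median over the 21 was -0.01, against 0.09 over all genes. SOCS3, a feedback inhibitor of cytokine receptors, had 11.2, 8.63 and 12.7 FPKM in CSC, against 5.68, 5.45 and 4.85 FPKM in DMSO, and rose by 0.94 ± 0.22 (SE, limma adjusted p = 0.0265). IRF2, a repressor of interferon-responsive genes, had 5.96, 5.96 and 5.24 FPKM in CSC, against 3.89, 4.11 and 4.16 FPKM in DMSO, and rose by 0.45 ± 0.12 (SE, limma adjusted p = 0.0464). The SOCS3 call was lost without any 1 DMSO library of 2 weeks or without CSC replicate 1 or 3 of 2 weeks (adjusted p 0.0700 to 0.121). The IRF2 call was kept in 2 of the 11 fits that left out 1 library (highest adjusted p 0.154), those without CSC replicate 2 or 3 of 48 hours, and was lost under the 3 other scalings (0.0627 to 0.174). At 48 hours 0 passed either way in CSC against DMSO (limma), where 0.184% of all genes fell and 0.104% rose. An unadjusted p under 0.05 was found for 4 of the 21, and for 1062 of all 12506 genes tested. At 2 weeks against 48 hours in CSC 5 of the 21 rose and 1 fell, where 12.3% of all genes rose and 1.38% fell. The median over the 21 was 0.24, against 0.19 over all genes. The genes called are named here after their values were seen. CEBPD, a C/EBP-family transcription factor, had 67.9, 36.8 and 44.2 FPKM at 2 weeks, against 21.2, 14.2 and 24.5 FPKM at 48 hours, and rose by 1.28 ± 0.23 (SE, limma adjusted p = 0.0149). The CEBPD call was kept in all 11 fits that left out 1 library and under the 3 other scalings. It was lost with only the libraries compared (0.0649). The receptor genes IL6R (0.94, adjusted p = 0.0185), TNFRSF1A (0.60, 0.0190), IL1R1 (0.59, 0.0182) and IFNGR2 (0.50, 0.0192) rose as well. The calls of TNFRSF1A, IL1R1 and IFNGR2 were lost under the 3 other scalings (adjusted p 0.0873 to 0.389), and that of IL6R under 1 of them (0.0620). Without CSC replicate 2 of 48 hours IL6R, TNFRSF1A and IL1R1 did not pass (0.0512 to 0.0598), nor did IL6R, TNFRSF1A and IFNGR2 without CSC replicate 1 of 2 weeks (0.0527 to 0.0708). RELB, an NF-kB subunit, had 6.44, 4.604 and 5.97 FPKM at 2 weeks, against 8.90, 9.46 and 11.4 FPKM at 48 hours, and fell by 0.76 ± 0.17 (SE, adjusted p = 0.0217), a call lost without CSC replicate 2 of 48 hours (0.0533) or CSC replicate 1 of 2 weeks (0.0514). With only the libraries compared RELB (limma adjusted p = 0.0670) and the receptor genes (0.0798 to 0.0921) did not pass either. In DMSO over time 0 of the 21 passed (limma), where 0.656% of all genes rose and 0.112% fell. An unadjusted p under 0.05 was found for 9 of the 21, and for 1601 of all 12506 genes tested. The median over the 21 was 0.29, against 0.09 over all genes. The cytokine gene TNF was listed at 0 in all libraries.

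The genes whose log2(FPKM + 0.5) followed that of C3 most closely over the 11 libraries, after centring each on its mean, were B4GALT1 (a galactosyltransferase; root mean square difference 0.154), LRP11 (0.217), TNS4 (0.219), SLC23A1 (a vitamin C transporter; 0.220) and BDKRB2 (a bradykinin receptor; 0.234). The median over all genes tested was 0.689, and the SD of C3 itself was 0.703. For CD55, which varied little (SD 0.239), they were ORMDL1 (0.0850), SLC7A11 (a cystine transporter; 0.129), ATAD2B (0.130), CNNM1 (0.132) and VMP1 (0.132), against a median of 0.336 over all genes. These are descriptions over libraries that share their groups.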
